A study of Mus musculus with 4 samples.

Results

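Pafah1b1, the gene of LIS1, and 8 genes of the machinery that LIS1 works with were followed through 4 spinal cord RNA-seq libraries. The 9 genes were chosen by symbol from the 32246 genes of the deposited table, and Pafah1b1 itself was picked on its measured difference between the treatment groups. Its own difference is therefore a description with no test, and the 8 partners are the genes on which the comparison was tested.

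The libraries came from C57BL/6 mice in which experimental autoimmune encephalomyelitis (EAE) had been induced, a disease used to model multiple sclerosis, and all 4 libraries share it. RNA was taken from cells of the spinal cord that the labels call mononuclear, collected on a Percoll gradient, and polyadenylated transcripts were sequenced. One group of mice was given the micropeptide P155 and the control group a scramble micropeptide (Scr), with treatment begun on day 8 after immunization and repeated every 2 days. Each group has 2 libraries, numbered 4 and 5, and the values of a group are given in that order throughout. The labels give neither age nor sex and do not say whether libraries came from separate or pooled animals, so p-values cover only how far these libraries spread, and that spread may be technical.

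LIS1 is a regulator of cytoplasmic dynein-1, the motor that carries cargo towards the minus ends of microtubules. It binds the motor domain of the dynein heavy chain and favours the assembly of active complexes with dynactin and a cargo adaptor, and NDE1 or NDEL1 help to bring it to dynein. In neurons this machinery serves nuclear movement during migration and retrograde transport along axons, and loss of one PAFAH1B1 copy in humans causes lissencephaly. LIS1 is also the non-catalytic subunit of the brain enzyme that hydrolyses platelet-activating factor, in which the products of Pafah1b2 and Pafah1b3 are the catalytic subunits.

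Pafah1b1 (ENSMUSG00000020745) lies on the minus strand of mm10 at chr11:74673949-74724670 and encodes a protein of 410 residues. Its level, given here for all genes as log2(normalized reads + 1) unless another scale is named, was 13.28 and 12.57 in Scr and 14.86 and 14.81 in P155. Both P155 libraries were high and almost equal, both Scr libraries were lower and further apart, and the groups did not overlap. The mean was 12.92 ± 0.50 (SD, n = 2) in Scr and 14.84 ± 0.04 (SD, n = 2) in P155, a difference of 1.91 or 3.77-fold. The smallest difference between a P155 and a Scr library was 1.53 and the largest was 2.30, while the gap within Scr was 0.71 and the gap within P155 was 0.05.

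The Pafah1b1 values rest on deep counts. The reads recovered for the gene were 12190 and 7195 in Scr and 35361 and 17024 in P155. P155 replicate 5 was sequenced less deeply, with 30777600 reads over all genes against 63862700 to 64702900 in the other libraries, yet it held more Pafah1b1 reads than either Scr library. Counting error alone came to 0.532% to 1.18% of these counts, as the relative SD of a Poisson count. The authors' deposited table gives Pafah1b1 a log2 fold change of 1.91 with an FDR of 3.75e-10. Under an FDR threshold of 0.05, the authors' deposited table calls 171 of 32246 genes, 0.53%, and Pafah1b1, picked on this contrast, has the 14th smallest p-value in it. That FDR is no test of a gene picked on the same values. A limma fit of the same libraries called 0 of 27079 genes at an adjusted p under 0.05, so Pafah1b1 was not called there.

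**Figure D1:**
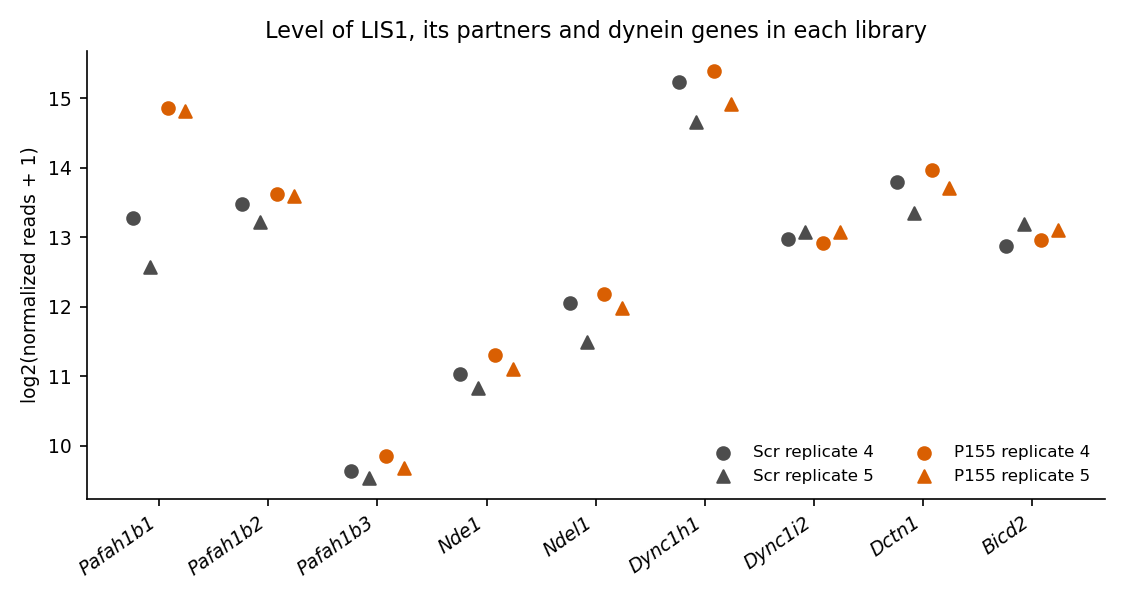
Level of each of the 9 genes as log2(normalized reads + 1) (vertical axis), with 1 point per library and 2 libraries per group. Pafah1b1 has both P155 libraries at 14.81 to 14.86 and both Scr libraries at 12.57 to 13.28, whereas the points of each partner lie closer together.

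In the plot of levels by gene and library, Pafah1b1 is the member with the wide gap between groups. Its rank among other genes is a description only, because Pafah1b1 was picked on this same difference. Among the 2659 tested genes with a mean level of at least 12, a limit set after the values were seen, Pafah1b1 had the largest absolute difference between the groups, and 19 of these genes differed by at least 1. Among all 27079 tested genes, where low counts give wide differences, it ranked 1300th. Abundant genes also varied within a group: 7 of the 2659 had a gap between the Scr libraries as large as the Pafah1b1 group difference, and 8 had such a gap between the P155 libraries. The gap of 0.71 between the Scr libraries for Pafah1b1 was matched or passed by 328 of these genes, or 12.3%, and the median gap was 0.29 in Scr and 0.16 in P155.

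The next abundant genes in that order were Myo6 with a difference of 1.60, Ddx6 with 1.58 and Ahcyl2 with 1.56. Myo6, which encodes an unconventional myosin, stood at 12.27 and 11.24 in Scr and 13.31 and 13.40 in P155, so its groups were separate like those of Pafah1b1. Ddx6, which encodes an RNA helicase, stood at 13.16 and 9.86 in Scr and 13.10 and 13.08 in P155. Only Scr replicate 5 was low for Ddx6. Ahcyl2 stood at 13.1 and 9.5 in Scr and 13.3 and 12.5 in P155, so its groups overlapped and Scr replicate 5 was again the lowest. The Pafah1b1 difference was 1.56 when Scr replicate 5 was left out and 2.27 when Scr replicate 4 was left out.

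**Figure D2:**
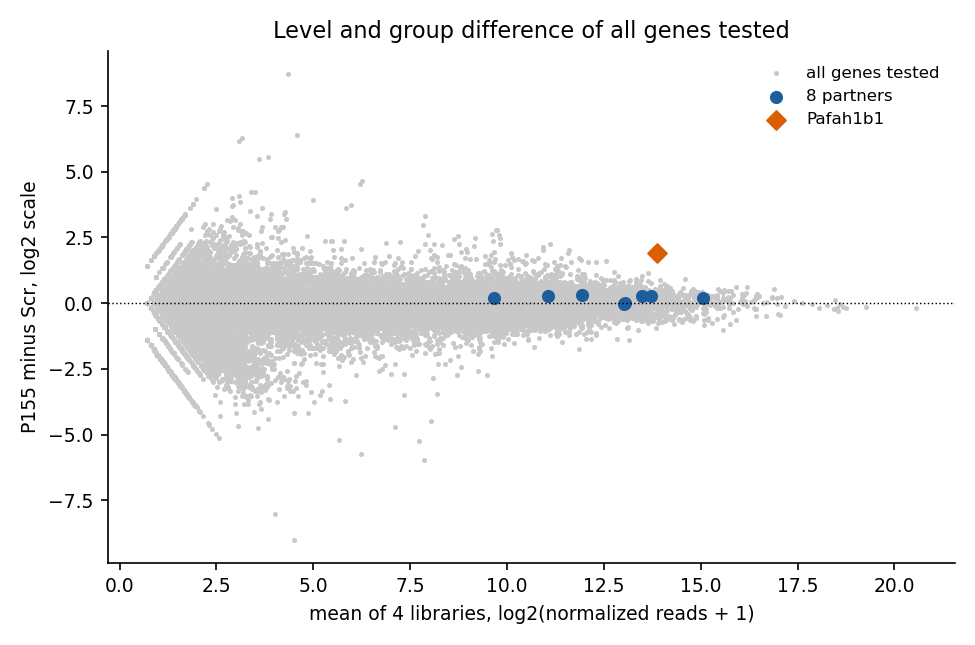
Difference between P155 and Scr on the log2 scale (vertical axis) against the mean level over the 4 libraries as log2(normalized reads + 1) (horizontal axis), with 1 point per tested gene and the 9 genes marked. Pafah1b1 stands at a difference of 1.91, and the 8 partners lie between -0.02 and 0.30.

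The plot of differences against level shows the partners inside the cloud of tested genes. Pafah1b1 lies above the other genes with a mean level of at least 12. No gene was called across the whole table: limma called 0 of 27079 genes (0%) at a Benjamini-Hochberg adjusted p under 0.05, and 1179 genes (4.35%) had an unadjusted p under 0.05. With limma-voom on the recovered reads the corresponding counts were 0 and 1072. None of the 8 partners had an unadjusted p under 0.05 with all 4 libraries; without Scr replicate 4 the count was 2, Pafah1b2 and Ndel1, among 2917 genes of the 25572 then tested. Their differences had a median of 0.23, beside -0.03 over all tested genes and 0.02 over the 9839 genes at or above the lowest mean level of a member. The difference was above 0 for 6 partners and below 0 for 2. Both P155 libraries exceeded both Scr libraries for 3 of the 8 partners, against 15.2% of all tested genes and 18.3% of the genes at or above the lowest member level.

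The catalytic partners of LIS1 in the platelet-activating factor enzyme come first. Pafah1b2 (ENSMUSG00000003131, chr9:45962859-46012690, minus strand), a catalytic subunit, stood at 13.48 and 13.22 in Scr and 13.62 and 13.60 in P155. The P155 libraries were the higher pair and the groups did not overlap. The difference was 0.26 with an SE of 0.16 and a 95% interval of -0.17 to 0.69 (limma Benjamini-Hochberg adjusted p = 0.861).

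Pafah1b3 (ENSMUSG00000005447, chr7:25295049-25297986, minus strand), the other catalytic subunit, had levels of 9.64 and 9.53 in Scr and 9.85 and 9.68 in P155. It was the least abundant member, with 486 to 1091 reads, and the groups were separated by 0.04 at their nearest. The difference was 0.18 with an SE of 0.19 and an interval of -0.31 to 0.67 (limma Benjamini-Hochberg adjusted p = 0.871).

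Of the genes whose products bring LIS1 to dynein, Nde1 (ENSMUSG00000022678, chr16:14163275-14192928, plus strand) is known from dividing neural progenitors. It measured 11.04 and 10.82 in Scr and 11.31 and 11.10 in P155. The lowest P155 library was just above the highest Scr library. The difference was 0.28 with an SE of 0.18 and an interval of -0.19 to 0.74 (limma Benjamini-Hochberg adjusted p = 0.861). Nde1 overlaps Marf1 on the opposite strand, and whether counting used strand is not given in the sources used here. Marf1 itself stood at 12.89 to 12.96 in all 4 libraries.

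Ndel1 (ENSMUSG00000018736, chr11:68821434-68871858, minus strand), the paralog of Nde1, lies on the same chromosome as Pafah1b1. Its levels were 12.05 and 11.50 in Scr and 12.18 and 11.97 in P155. Scr replicate 5 was low, and Scr replicate 4 lay between the P155 libraries, so the groups overlapped. The difference was 0.30 with an SE of 0.24 and an interval of -0.33 to 0.93 (limma Benjamini-Hochberg adjusted p = 0.861). It came to 0.02 without Scr replicate 5 and to 0.58 without Scr replicate 4.

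For the motor, Dync1h1 (ENSMUSG00000018707, chr12:110601452-110666945, plus strand) encodes the heavy chain that holds the motor domain and to which LIS1 binds. It stood at 15.23 and 14.65 in Scr and 15.39 and 14.92 in P155. In each group replicate 5 was the lower library, and the groups overlapped. The difference was 0.21 with an SE of 0.29 and an interval of -0.55 to 0.97 (limma Benjamini-Hochberg adjusted p = 0.896), and it was -0.08 when Scr replicate 5 was left out. Dync1h1 shares 403 bases at 100% identity with the overlapping predicted gene Gm35558, so a part of its reads could be assigned to either gene, and it also overlaps the antisense gene Gm17111.

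Dync1i2 (ENSMUSG00000027012, chr2:71211706-71263303, plus strand) encodes an intermediate chain, through which dynein meets dynactin and NDEL1. Its levels were 12.97 and 13.07 in Scr and 12.91 and 13.08 in P155. The 4 libraries were nearly level and the groups overlapped. The difference was -0.02 with an SE of 0.15 and an interval of -0.42 to 0.38 (limma Benjamini-Hochberg adjusted p = 0.988).

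Dctn1 (ENSMUSG00000031865, chr6:83165920-83200117, plus strand) encodes p150Glued, the dynactin subunit that binds microtubules and the dynein intermediate chain. It stood at 13.79 and 13.35 in Scr and 13.97 and 13.71 in P155. Scr replicate 4 was above P155 replicate 5, so the groups overlapped, and the antisense gene Gm15624 lies within its span. The difference was 0.27 with an SE of 0.22 and an interval of -0.30 to 0.84 (limma Benjamini-Hochberg adjusted p = 0.861).

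Bicd2 (ENSMUSG00000037933, chr13:49341585-49387026, plus strand) encodes an adaptor that joins dynein and dynactin to cargo. Its levels were 12.88 and 13.19 in Scr and 12.95 and 13.11 in P155. The highest and the lowest library both belonged to Scr. The difference was -0.0047 with an SE of 0.18 and an interval of -0.48 to 0.47 (limma Benjamini-Hochberg adjusted p = 1.0).

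**Figure D3:**
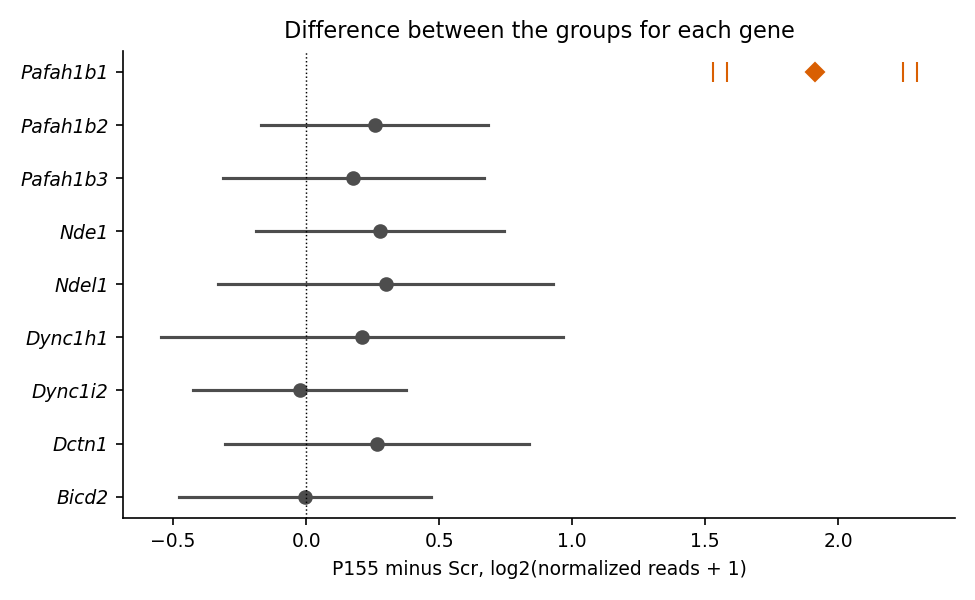
Difference between P155 and Scr on the log2 scale (horizontal axis) for the 9 genes; for the 8 partners, bars are limma 95% intervals over 2 libraries per group, and Pafah1b1 is shown with no interval because it was picked on this value. Every partner interval includes 0, and the highest upper bound, that of Dync1h1, is 0.97.

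As the plot of group differences shows, the highest upper bound of the 8 partner intervals was 0.97. The Pafah1b1 difference of 1.91 was larger, but Pafah1b1 was picked on that value, so setting it beside these intervals is no test. The intervals do not show that the partners were equal between groups. In the authors' deposited table the FDR of the 8 partners was 0.928 to 0.998, so none of them is among its 171 called genes. Across the 9 genes, 7 had their lowest level in Scr replicate 5 and 7 their highest in P155 replicate 4. Both counts include Pafah1b1, which was picked on its group difference. The same shares over all tested genes were not counted, so these counts are a description of the libraries only. The median partner difference was 0.09 without Scr replicate 5, 0.12 without P155 replicate 4, 0.39 without Scr replicate 4 and 0.32 without P155 replicate 5.

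Levels of different genes were compared per length, as normalized reads per kilobase of merged exons. Pafah1b1 had 1034 and 631 in Scr and 3100 and 2987 in P155. Among the 9 genes it held position 6 in Scr replicate 4 and position 7 in Scr replicate 5, below Dync1h1, Dctn1, Pafah1b2, Bicd2 and Ndel1 in both. In both P155 libraries it held position 1. Nde1 and then Pafah1b3 were lowest in all 4 libraries, and Dync1h1 and Dctn1 were the highest partners in all 4. Ndel1 changed places with Bicd2 between the libraries of each group, as did Dync1h1 with Dctn1 in P155. In both Scr libraries Dync1h1 was above Dctn1. Whether these neighbours differ beyond their spread was not tested.

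The ratio of Pafah1b1 to each partner, per length, put the same contrast on one scale within each library. To Pafah1b2, the catalytic subunit, it was 0.748 and 0.546 in Scr and 2.04 and 1.99 in P155. To Dync1h1, the heavy chain, it was 0.420 and 0.384 in Scr and 1.13 and 1.51 in P155. The ratio to Ndel1 was 0.792 and 0.709 in Scr and 2.18 and 2.41 in P155. For all 8 partners both P155 ratios exceeded both Scr ratios. That separation follows from the value on which Pafah1b1 was picked, and it is given with no test.

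**Figure D4:**
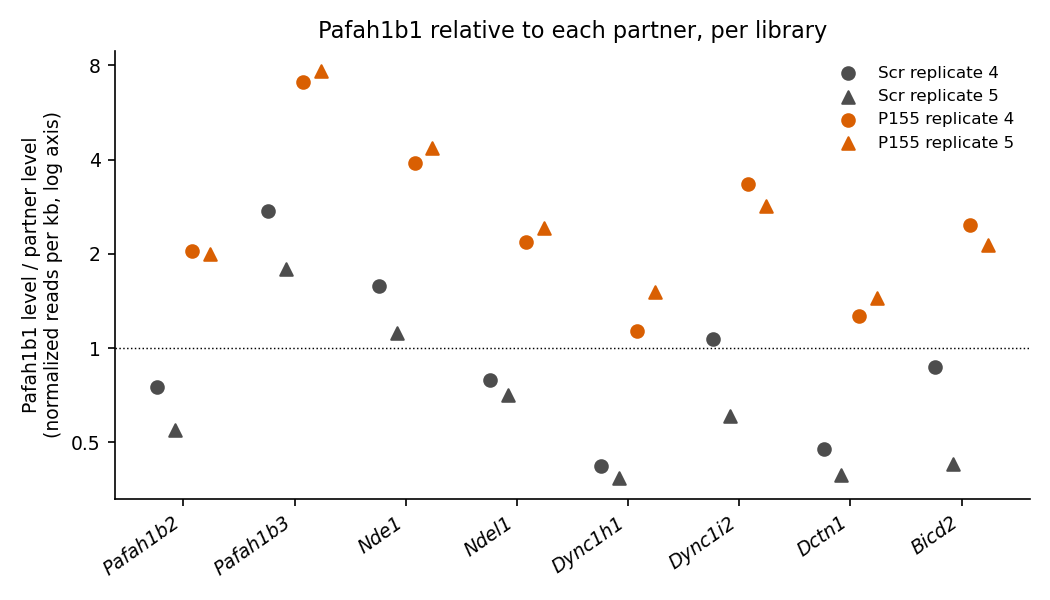
Ratio of Pafah1b1 to each of the 8 partners in normalized reads per kilobase of merged exons (log axis), with 1 point per library, 2 Scr and 2 P155. For Dync1h1 the ratio is 0.384 to 0.420 in Scr and 1.13 to 1.51 in P155, and the 2 groups are likewise apart for the other partners.

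Among the rest of the pathway, 68 genes in 6 lists were tested, including 6 of the 8 partners. The difference was above 0 for 36 and below 0 for 32, with a median of 0.03, and 0 had an unadjusted p under 0.05 in limma, against 4.35% of all tested genes. Without Scr replicate 4 the count was 8, with the replicate number as a block or without P155 replicate 4 it was 2, and without either replicate 5 it was 1. Both P155 libraries were above both Scr libraries for 16 of the 68, and both were below for 10, against 15.2% of all tested genes above and 19.6% below. Of these 10, 4 are the dynein-1 light chains Dynlt1a, Dynlt1b, Dynlt1c and Dynlt1f, near-identical copies that are not independent entries.

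Of the 14 dynein-1 subunits, 7 differed upwards and 7 downwards, with a median of 0.01. The smallest p-values belonged to light chains of the Tctex family: Dynlt1c, at 9.74 and 9.75 in Scr and 9.50 and 9.32 in P155, differed by -0.34. Dynlt1a differed by -0.36 and Dynlt1b by -0.31 (limma Benjamini-Hochberg adjusted p = 0.861 for each of these genes). These light chains and Dynlt1f are near-identical copies between which reads can be split, so their single values are uncertain. They are not independent entries among the 7 subunits that differed downwards.

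The 12 dynactin genes had a median of 0.02. Actr10, a subunit of the pointed end of the dynactin filament, stood at 12.42 and 12.10 in Scr and 12.56 and 12.59 in P155, a difference of 0.31. Dctn5, of the same end, differed by -0.46, with the groups overlapping. The 5 dynein-2 subunits, which serve transport in cilia, had a median of -0.01 and no gene whose groups were separate. Dync2h1, their heavy chain, differed by 0.48, Tctex1d2 by -0.36 and Wdr60 by 0.06.

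Among the 15 activating adaptors, which link dynein and dynactin to cargo, the median was 0.16 and both P155 libraries were the higher for 4 and the lower for 2, against 15.2% and 19.6% of all tested genes. Hook1 measured 9.52 and 10.03 in Scr and 10.30 and 10.42 in P155, a difference of 0.59 with an SE of 0.24 (limma Benjamini-Hochberg adjusted p = 0.861). Trak1, an adaptor for mitochondria, measured 12.10 and 12.35 in Scr and 12.80 and 12.51 in P155, a difference of 0.43. Rab11fip3, on recycling endosomes, differed by 0.29.

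The 15 partners of LIS1 and NDEL1 in neuronal migration had a median of 0.18, and both P155 libraries were above both Scr libraries for 5 of them and below for 0, against 15.2% and 19.6% of all tested genes. Dcx, which encodes the microtubule-binding protein doublecortin, stood at 9.45 and 8.99 in Scr and 9.67 and 9.57 in P155, a difference of 0.40. Dab1, the adaptor of reelin signalling, differed by 0.37. Disc1, which encodes an NDEL1-binding scaffold, differed by 0.63 at a low level of 5.49 to 6.52 (limma Benjamini-Hochberg adjusted p = 0.861 for each of these genes).

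The 7 genes of platelet-activating factor metabolism had a median of -0.23. The pair Pafah1b2 and Pafah1b3 were the ones above 0, and 5 were below. Ptafr, the receptor of platelet-activating factor, stood at 9.69 and 10.21 in Scr and 9.64 and 8.65 in P155, a difference of -0.80. Pafah2, an enzyme of another family that hydrolyses the same lipid, stood at 9.70 and 10.21 in Scr and 9.60 and 9.05 in P155, a difference of -0.63 (limma Benjamini-Hochberg adjusted p = 0.861 for each of these genes).

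Pafah1b1 was set beside its neighbours on chromosome 11. Cluh, the nearest tested gene at 3102 bases, measured 12.56 and 12.41 in Scr and 12.60 and 12.41 in P155, a difference of 0.02. On the same side Ccdc92b differed by 0.09. On the other side Mettl16 differed by -0.06, Mnt by -0.30 and Sgsm2 by -0.39. Rap1gap2, beyond Ccdc92b, was the neighbour with the largest difference, at 10.80 and 11.95 in Scr and 12.25 and 12.41 in P155. Its groups did not overlap, and the difference of 0.96 had an unadjusted limma p of 0.0685 (Benjamini-Hochberg adjusted p = 0.861).

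**Figure D5:**
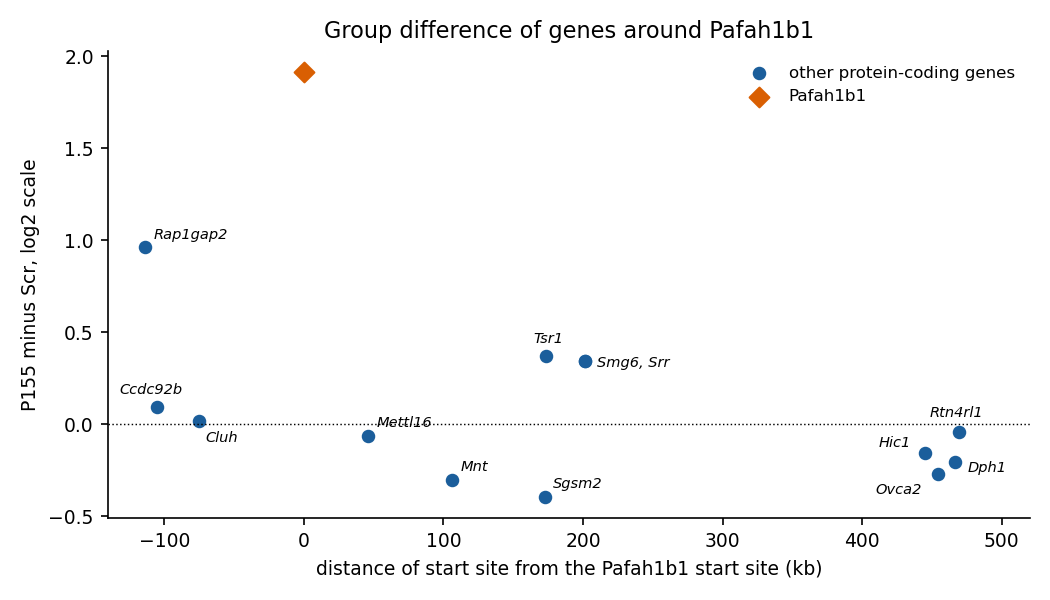
Difference between P155 and Scr on the log2 scale (vertical axis) for the tested protein-coding genes within 500 kb of Pafah1b1, against the distance of their start site from that of Pafah1b1 in kilobases (horizontal axis). Pafah1b1 stands at 1.91, and the 13 other genes lie between -0.39 and 0.96 with a median of -0.04.

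Over the plotted 500 kb on either side, 13 other protein-coding genes were tested, and 0 had an unadjusted p under 0.05 in limma. Both P155 libraries were the higher for 2 of them and the lower for 1, against 15.2% and 19.6% of all tested genes. Pafah1b1 overlaps no other annotated gene, and no transcript of another gene matched its own over at least 100 bases at 98% identity or more. Reads summed over the gene do not tell its 3 annotated protein-coding transcripts apart.

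The pattern over the 4 libraries was compared with that of 13817 tested genes by the root mean square distance between values centred on each gene's own mean. Those genes had a mean of at least 100 normalized reads, and predicted genes, clone-named genes and pseudogenes were left out. The nearest genes were Zfx at 0.126, Tspan5 at 0.141, Zfp961 at 0.180, Sertad2 at 0.185 and Coa7 at 0.186. Tspan5, which encodes a tetraspanin, stood at 10.32 and 9.41 in Scr and 12.01 and 12.02 in P155. The nearest partner, Ndel1, ranked 1631st at a distance of 0.811, and Bicd2 was the farthest at 1.03. With 4 libraries, likeness of this kind is a description, and the genes share these libraries and their scaling.

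Markers of the cells that the libraries could hold were measured beside the members. The leukocyte marker Ptprc was present at 11.33 to 12.19, but the neuronal gene Snap25 at 16.74 to 17.03 was also present in every library, so RNA of neural tissue was there beside that of mononuclear cells. Of 8 neuronal markers 7 had a difference above 0, with a median of 0.28, and their summed log2 level was 18.67 and 18.25 in Scr and 18.87 and 18.66 in P155. Both P155 libraries were the higher for 4 of the 8, against 15.2% of all tested genes. An unadjusted limma p under 0.05 was reached by 1 of the 8, against 4.35% of all tested genes.

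The summed leukocyte markers were 15.84 and 16.21 in Scr and 15.72 and 15.01 in P155, and all 11 leukocyte identifiers had a difference below 0, with a median of -0.67. These 11 identifiers stand for 10 genes, because Itgam has more than 1 entry. The Itgam entry with the larger difference stood at 11.17 and 0 in P155. All 5 microglial markers were below 0 as well, with a median of -0.51, while their summed level was 14.78 and 15.37 in Scr and 14.64 and 14.52 in P155. For astrocytes the summed level was 18.00 to 18.09, and no marker of the lists reported here was at 0 in all 4 libraries. All 4 endothelial markers had a difference below 0, with a median of -0.24 and summed levels of 13.52 and 13.42 in Scr and 13.29 and 12.90 in P155. All 5 erythroid markers were below 0 too, with a median of -0.64 and summed levels of 17.24 and 16.64 in Scr and 15.65 and 17.09 in P155. An unadjusted limma p under 0.05 was reached by 3 leukocyte identifiers and 1 endothelial marker, all lower in P155. The microglial, astrocyte and erythroid lists had 0 such markers, and the share over all tested genes was 4.35%. Both P155 libraries were the lower for 6 leukocyte, 3 microglial, 2 endothelial and 0 astrocyte or erythroid entries, against 19.6% of all tested genes. In bulk libraries more cells of a type and more RNA per cell cannot be told apart. The part of cell composition in the Pafah1b1 and partner values was not tested.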

How the data were processed

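Polyadenylated RNA from Percoll-isolated spinal cord cells was sequenced by Illumina HiSeq, per the labels. The submitters' processing notes name bcl2fastq, STAR 2.5.3a, DESeq2 and the build mm10. How reads were counted, on which annotation and with what use of strand is not given in the sources used here. Values were deposited as log2(normalized reads + 1) per gene and library. The deposited table also holds the authors' group means, the log2 fold change, with the p-value and FDR that the authors computed. Undoing the log2 gave whole reads for 100% of the deposited values within a tolerance of 1e-06, at size factors of 1.23 and 1.19 in Scr and 1.19 and 0.592 in P155.

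A count model had been planned for raw counts. Because the values are log2, limma 3.58.1 (R 4.3.3, mean-variance trend, two-sided, Benjamini-Hochberg over the 27079 genes that reached a normalized value of 1 in 2 or more libraries) was used for P155 against Scr, after being checked on simulated data. In that check each simulated gene had the median spread of its level, and the planted changes were far larger than the partner differences. It therefore does not cover differences of the partners' size. The pseudocount of 1 understates changes of genes at low levels. Coordinates, exon lengths and coding lengths come from GENCODE M21, which uses the same build and matched 32168 identifiers, and similar transcripts were searched with blastn 2.17.0. The members and lists were chosen with earlier results of these data known. Named genes are the 9 members, up to 3 genes per pathway list with the smallest unadjusted p, the 5 genes most like Pafah1b1 among those with a mean of at least 100 normalized reads, the 3 nearest tested genes on each side of it, and cell type markers, of which 1 list is not reported here. Predicted genes, clone-named genes and pseudogenes were left out of the search for genes most like Pafah1b1. Myo6, Ddx6, Ahcyl2 and Marf1 were added after their values were seen. Alternatives were library-size scaling, a pseudocount of 0.1, no filter, a stricter filter, limma-voom, a robust variance prior, a replicate block and each library left out.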

Additional observations from a re-analysis of the deposited data

How the results depend on the processing

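With each library left out in turn, a lone library being assumed to vary like the other group, the number of genes called by limma ranged from 0 to 6, and the 6 were called without P155 replicate 4; the cause was not tested. The number of genes with an unadjusted p under 0.05, 1179 with all libraries, was 2917 without Scr replicate 4, 426 without Scr replicate 5, 2933 without P155 replicate 4 and 805 without P155 replicate 5. With the other alternatives 0 genes were called, including the fit with a replicate block. In that fit 1195 genes had an unadjusted p under 0.05 and Pafah1b1 differed by 1.91. Libraries of the same number deviated together with a correlation of 0.20 over 9839 genes and 2 pairs; the labels do not say whether the numbers pair the groups, and the block changed no call. The Pafah1b1 difference was 1.91 to 1.93 under the scaling, pseudocount, filter, voom, prior and block alternatives, and 1.56 to 2.27 with a library left out. Of 88 partner values under 11 alternatives, 81 kept their sign and 7 reversed it. Over left-out libraries Ndel1 ranged from 0.02 to 0.58, Dync1h1 from -0.08 to 0.50, Dync1i2 from -0.11 to 0.0623 and Bicd2 from -0.16 to 0.15, and scaling by library size alone gave Bicd2 0.0073. No partner and no pathway gene was called under any alternative. The DESeq2 test, meant for raw counts, was not run. With 2 libraries per group, of which P155 replicate 5 had 30777600 reads, the partner intervals are wide, and differences as large as 0.97 lie within them.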
